A study of Mus musculus with 6 samples.

Results

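The type I interferon response genes described here are 43 mouse genes chosen by symbol, all 43 of which were found among the 48401 gene symbols listed for each library. Their levels were followed in bulk RNA-seq libraries of mouse dorsal root ganglia (DRG), which house the cell bodies of sensory neurons. The L4/5 ganglia came from C57BL/6J males, 8 weeks old, that had been given a small interfering RNA (siRNA) intrathecally, that is, into the spinal fluid. It was either siCLAP, against the long intergenic noncoding RNA CLAP, or siNC, taken here as the control. There were 3 libraries in the siCLAP group and 3 in the siNC group. All 6 come from mice given an siRNA, and ganglia without one were not analysed here. Neither the siRNA dose nor the interval before collection is given in the sources used here. Whether each library is a different mouse is not said in the labels, and the spread that p-values measure may therefore be technical. CLAP itself was not analysed here, so the effect of the siRNA on its target was not checked, and siCLAP below names the siRNA given and not a measured loss of CLAP.

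Type I interferons are secreted proteins that bind a cell surface receptor built from Ifnar1 and Ifnar2. The receptor's kinases Jak1 and Tyk2 phosphorylate Stat2, which acts in a complex with Irf9 that binds the interferon-stimulated response element in the promoters of target genes. The products of those genes sense viral RNA, block its translation or copying, degrade it and restrict virus release, and others shut the pathway off again. Sensory neurons of the ganglion carry the receptor, and a low level of the target genes is present in most tissues without infection.

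Of the 43 members, 42 had a mean of at least 1 TPM (a transcript level scaled to gene length and library total) over the 6 libraries and entered the tests. The exception was Oas3, which averaged 0.893 TPM. Total expected counts per library, the estimated reads assigned to genes, were 39239131, 25982046 and 29583942 in siCLAP-1 to siCLAP-3, and 35702727, 46317735 and 21386768 in siNC-1 to siNC-3. Sensory neuron markers were high in every library, with Tubb3, the neuronal tubulin, between 3528 and 4002 TPM. Levels below are given as CPM (counts scaled to the library total by TMM, not to gene length) unless TPM is named.

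Promoters of 8 members that hold the response element letters are shown first because the response element is the sequence through which the pathway's transcription factors reach them. RefSeq windows (build GRCm38.p6) of 300 bases, running from 250 bases before to 50 after the annotated start, were matched by symbol to 31 of the 43 members. Usp18, Dhx58, Zbp1, Oas2, Mx1, Mx2, Iigp1, Parp9, Parp14, Ifi27, Ifi27l2a and Rtp4 had no entry. The core of the response element was searched as GAAA, any 2 bases, then GAAA, on both strands, with overlapping matches counted. The capitals below mark the matched letters, read 5′ to 3′ on the gene's own strand.
Ifit1 promoter, chr19:34640639-34640938, plus strand: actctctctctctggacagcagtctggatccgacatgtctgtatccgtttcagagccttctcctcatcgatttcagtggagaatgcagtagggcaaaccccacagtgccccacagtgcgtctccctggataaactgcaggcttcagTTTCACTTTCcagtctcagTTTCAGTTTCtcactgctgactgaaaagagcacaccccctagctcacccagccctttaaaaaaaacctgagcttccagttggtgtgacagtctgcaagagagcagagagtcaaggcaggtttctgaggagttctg
Stat2 promoter, chr10:128270248-128270547, plus strand: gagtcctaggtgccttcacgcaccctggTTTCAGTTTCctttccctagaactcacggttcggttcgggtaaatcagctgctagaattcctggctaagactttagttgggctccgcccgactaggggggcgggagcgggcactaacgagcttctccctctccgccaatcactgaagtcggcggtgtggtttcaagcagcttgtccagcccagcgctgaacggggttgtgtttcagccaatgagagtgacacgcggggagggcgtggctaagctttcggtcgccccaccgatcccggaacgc
Ifit3 promoter, chr19:34583279-34583578, plus strand: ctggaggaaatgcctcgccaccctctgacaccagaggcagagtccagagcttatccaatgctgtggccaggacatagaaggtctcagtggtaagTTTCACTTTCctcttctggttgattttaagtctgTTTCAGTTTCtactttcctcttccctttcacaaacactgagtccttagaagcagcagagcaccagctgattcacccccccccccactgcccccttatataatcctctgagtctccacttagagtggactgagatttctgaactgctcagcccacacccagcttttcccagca
Bst2 promoter, chr8:71537423-71537722, minus strand: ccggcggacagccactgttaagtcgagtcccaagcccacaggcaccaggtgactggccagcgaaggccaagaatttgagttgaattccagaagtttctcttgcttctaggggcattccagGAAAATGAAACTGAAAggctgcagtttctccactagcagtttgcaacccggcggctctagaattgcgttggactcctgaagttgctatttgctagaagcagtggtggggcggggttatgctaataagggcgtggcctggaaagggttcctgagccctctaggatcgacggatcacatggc
Igtp promoter, chr11:58199306-58199605, plus strand: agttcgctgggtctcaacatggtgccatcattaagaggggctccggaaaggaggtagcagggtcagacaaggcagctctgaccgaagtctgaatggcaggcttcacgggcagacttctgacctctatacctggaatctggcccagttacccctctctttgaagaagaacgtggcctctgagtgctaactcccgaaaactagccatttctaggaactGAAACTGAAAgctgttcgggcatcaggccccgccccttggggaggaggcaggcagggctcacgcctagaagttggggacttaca
Ddx58 promoter, chr4:40239776-40240075, minus strand: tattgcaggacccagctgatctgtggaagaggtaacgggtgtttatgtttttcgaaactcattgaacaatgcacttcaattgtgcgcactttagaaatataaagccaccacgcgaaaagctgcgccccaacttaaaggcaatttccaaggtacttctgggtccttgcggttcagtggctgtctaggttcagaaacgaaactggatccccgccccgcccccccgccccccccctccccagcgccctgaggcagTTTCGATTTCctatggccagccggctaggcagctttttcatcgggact
Gbp3 promoter, chr3:142559794-142560093, plus strand: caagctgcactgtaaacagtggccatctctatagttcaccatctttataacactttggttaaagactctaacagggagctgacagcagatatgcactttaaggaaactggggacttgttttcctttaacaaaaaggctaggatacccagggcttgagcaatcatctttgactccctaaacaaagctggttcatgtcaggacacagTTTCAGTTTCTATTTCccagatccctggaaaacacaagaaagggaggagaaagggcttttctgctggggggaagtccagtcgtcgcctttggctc
Isg15 promoter, chr4:156200769-156201068, minus strand: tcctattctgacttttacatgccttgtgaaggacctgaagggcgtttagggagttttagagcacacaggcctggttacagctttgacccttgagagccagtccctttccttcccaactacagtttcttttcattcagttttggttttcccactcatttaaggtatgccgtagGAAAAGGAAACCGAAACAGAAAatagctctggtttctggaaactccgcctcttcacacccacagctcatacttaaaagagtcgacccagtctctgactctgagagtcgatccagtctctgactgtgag

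Isg15 held a run of 3 overlapping matches beginning 78, 72 and 66 bases before its start. Ifit1 and Ifit3 held 2 separate matches each, on the opposite strand, the one nearer the start beginning 85 bases before it in Ifit1 and 122 bases before it in Ifit3. Bst2 and Gbp3 each held an overlapping pair. The match of Ddx58 began at position 3 counted from its start, within the transcribed sequence, and that of Stat2 lay 222 bases upstream.

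Over all windows the letters were found in 17 of 38 windows of members, which is 44.7%, and in 1131 of 32851 windows of the table, which is 3.44%. The 17 windows belong to 16 members. A second motif, TTC, any 3 bases, then GAA, the core of the gamma-activated site known from the response to interferon gamma, was found in 7 of the 38 member windows (18.4%) and in 8.30% of all windows. It reads the same on both strands, and it can overlap the first motif, as it does in Bst2. A match is a run of letters and not evidence of binding.

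**Figure D1:**
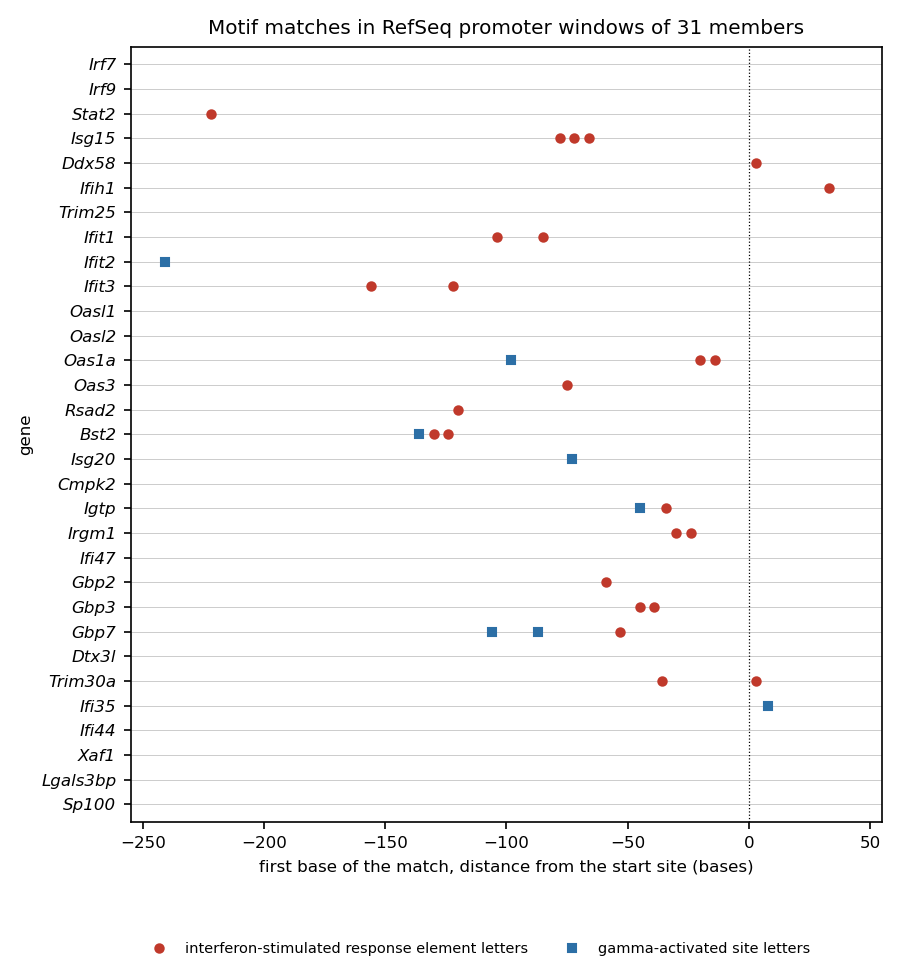
Positions of motif matches in the promoter windows of 31 members, with the distance of the first base of the match from the start site in bases on the x axis and 1 row per gene. Circles are response element letters and squares gamma-activated site letters, and most circles lie within 160 bases before the start.

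The members covered a wide range of levels. Mean TPM ran from 0.893 in Oas3 to 185 in Oasl2, with a median of 18.3, and 6 members were at 100 TPM or more while 12 were under 10. Oasl2, Ifi27, Ifit1, Lgals3bp, Ifi27l2a and Stat2 were the 6 most abundant. Counts behind a single value ran from 15 to 8654, and 37 members had at least 100 counts in every library.

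Libraries of the same group differed widely. The highest library of a group was a median of 1.66-fold above the lowest over the 43 members in the siCLAP group and 1.76-fold in the siNC group. In the siCLAP group, siCLAP-2 had the highest value of 38 of the 42 tested members, against 35.7% of all 19141 tested genes. In the siNC group, siNC-3 had the highest value of 40 members, against 30.8% of all tested genes. For 36 members both held. Among the siCLAP libraries siCLAP-1 was lowest for 31 members (27.4% of all tested genes), and among the siNC libraries siNC-2 was lowest for 25 (32.4%) and siNC-1 for 17 (35.4%). The other libraries were highest for few members, with 0 in siCLAP-1 (28.2% of all tested genes), 4 in siCLAP-3 (36.0%), 1 in siNC-1 (32.7%) and 1 in siNC-2 (36.4%). Summed over the 43 members, the level was 1380.5, 2029 and 1528 TPM in siCLAP-1 to siCLAP-3, and 1479, 1460 and 2105 TPM in siNC-1 to siNC-3. The members vary together across libraries, so these counts are not 42 independent observations, and with 1 library on one side no test was made.

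**Figure D2:**
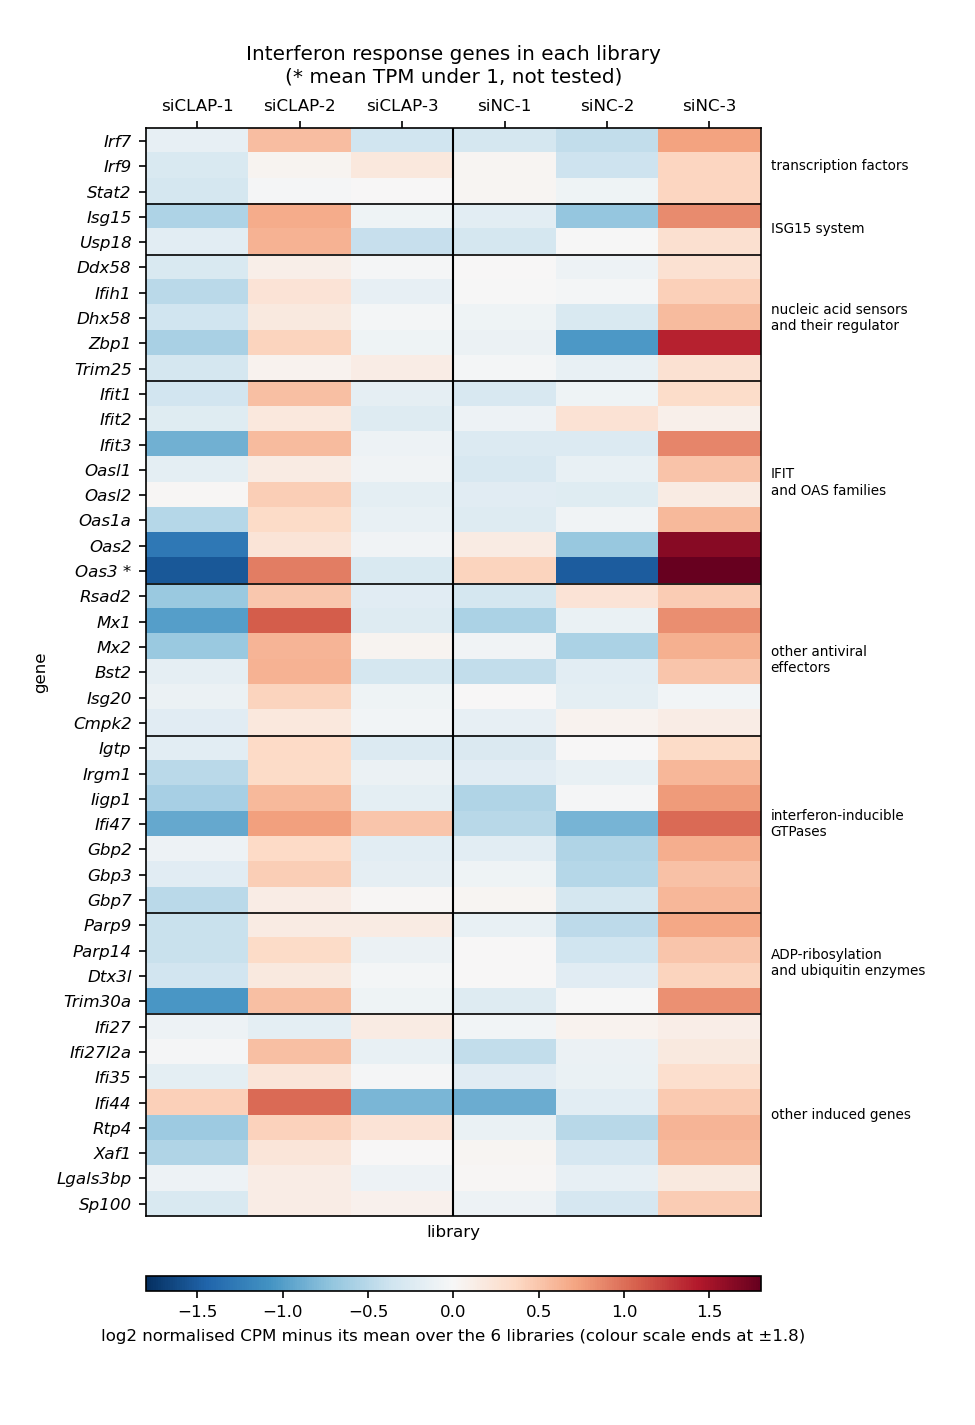
Level of each of the 43 members (rows, by role) in each library (columns, siCLAP left of siNC), as log2 normalised CPM minus the gene's mean over the 6 libraries. Most rows are red in siCLAP-2 and siNC-3 and blue or pale in the other 4 libraries, with Ifi27, Isg20 and Ifit2 among the exceptions.

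Measured by size, 12 members in siCLAP-2 were at least 1.5-fold above both other siCLAP libraries, against 1.85% of all tested genes. In siNC-3 the count was 20 members at least 1.5-fold above both other siNC libraries, against 2.51% of all tested genes. No member was that far above both partners in siCLAP-1, siCLAP-3, siNC-1 or siNC-2, where 1.36%, 1.79%, 1.35% and 1.34% of all tested genes were. The median member stood 0.59 above the mean of the other 2 libraries on the log2 scale in siCLAP-2 and 0.71 above it in siNC-3. The median was −0.42 in siCLAP-1, −0.04 in siCLAP-3, −0.26 in siNC-1 and −0.28 in siNC-2, while the median of all tested genes lay within 0.01 of zero in each library. In the other direction, 7 members in siCLAP-1 were at least 1.5-fold below both partners (1.55% of all tested genes), 0 in siCLAP-2 (2.06%), 1 in siCLAP-3 (1.83%), 1 in siNC-1 (1.74%), 2 in siNC-2 (2.13%) and 0 in siNC-3 (1.99%). The 1.5-fold limit above both partners was met together by 9 members in siCLAP-2 and siNC-3, and by 94 of the 19141 tested genes (0.491%).

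**Figure D3:**
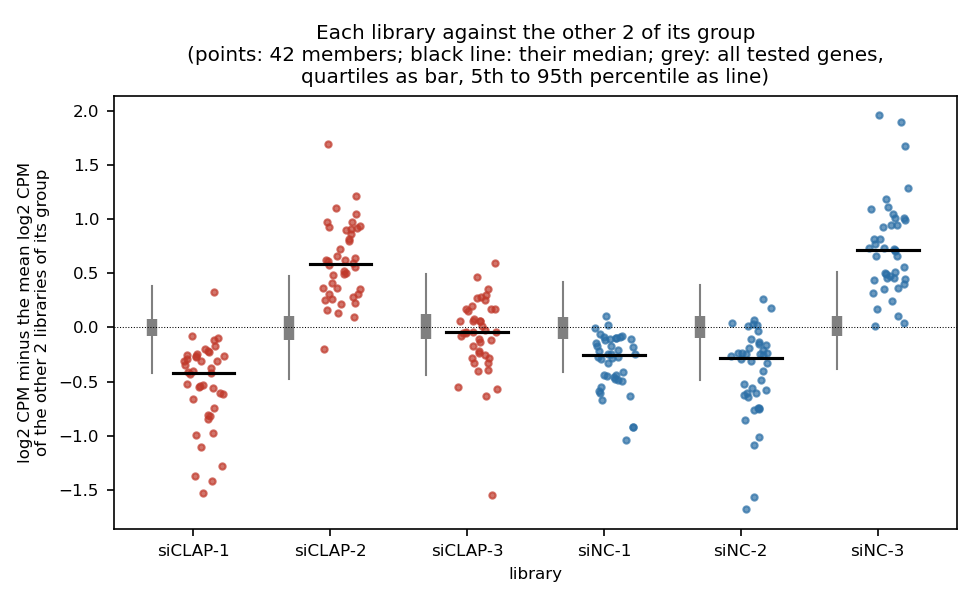
Difference of each library from the other 2 of its group, as log2 CPM minus their mean log2 CPM, for the 42 tested members (points, black line at the median) and for all tested genes (grey bar for the quartiles, grey line for the 5th to 95th percentile). The member medians are 0.59 in siCLAP-2 and 0.71 in siNC-3 and below 0 in the other 4 libraries.

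siCLAP-2 and siNC-3 were also the libraries of their groups with the fewest counts, at 25982046 and 21386768. Depth was scaled out of CPM and TPM, and a part of depth in the difference was not tested. Counting error is small beside it for abundant members, as the intervals on single ratios below show. These intervals are exact 95% intervals for the ratio of 2 counts and cover counting error only. In bulk tissue, more cells that carry a transcript and more transcript per cell cannot be told apart.

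Among the transcription factors, Irf7, the factor that amplifies interferon production and is itself induced by interferon, differed most. It stood at 28.6, 46.9 and 24.7 CPM in siCLAP-1 to siCLAP-3, and at 25.4, 23.4 and 52.3 CPM in siNC-1 to siNC-3. Its value in siCLAP-2 was 1.64-fold that of siCLAP-1 (1.51 to 1.78), the higher of the other 2 siCLAP libraries, and in siNC-3 it was 2.06-fold that of siNC-1 (1.88 to 2.25). The groups overlapped, each with 1 library well above its other 2. Stat2, the signal transducer of the receptor, was at 137, 168 and 171 CPM in the siCLAP libraries and 174, 161 and 222 CPM in the siNC libraries. Irf9, the DNA-binding partner of Stat2, was at 34.0, 42.7 and 47.0 CPM in the siCLAP libraries and 42.1, 31.8 and 53.9 CPM in the siNC libraries. For Irf9 the highest siCLAP library was siCLAP-3, with siCLAP-2 at 0.908-fold that value (0.838 to 0.983). For Stat2 siCLAP-2 and siCLAP-3 could not be separated, at a ratio of 0.984 (0.944 to 1.02). For neither gene did siCLAP-2 stand above both partners, as it did for Irf7.

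Isg15, a ubiquitin-like protein attached to other proteins during the response, was also highest in siCLAP-2 and siNC-3, although its lowest siCLAP library was siCLAP-1 where that of Irf7 was siCLAP-3. Its values were 5.79, 13.4 and 8.03 CPM in siCLAP-1 to siCLAP-3, against 7.43, 5.26 and 15.3 CPM in siNC-1 to siNC-3. The ratio to the higher partner was 1.67 (1.41 to 1.98) in siCLAP-2 and 2.05 (1.74 to 2.42) in siNC-3. Usp18, the protease that removes Isg15 and damps receptor signalling, was at 18.4, 32.3 and 15.7 CPM in the siCLAP libraries and 16.9, 20.9 and 25.5 CPM in the siNC libraries. Here siCLAP-2 stood 1.75-fold above its higher partner and siNC-3 only 1.22-fold.

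Of the 5 sensors of foreign RNA and DNA and their regulator, 0 stood 1.5-fold above both partners in siCLAP-2. In siNC-3 2 did, Zbp1 and Dhx58, the latter at 1.56-fold that of siNC-1 (1.30 to 1.86). Ddx58, which encodes RIG-I, the sensor of viral RNA ends, was at 69.9, 90.8 and 83.0 CPM in the siCLAP libraries and 84.2, 78.7 and 101 CPM in the siNC libraries. Trim25, the ubiquitin ligase associated with RIG-I activation, was at 49.8, 64.9 and 67.7 CPM in the siCLAP libraries and 60.7, 56.7 and 75.1 CPM in the siNC libraries. Dhx58, which encodes LGP2, a regulator of the RNA sensors, was at 6.02, 8.69 and 7.55 CPM in the siCLAP libraries and 7.35, 6.39 and 11.4 CPM in the siNC libraries. All 5 genes of this group were highest in siNC-3 among the siNC libraries and 4 of 5 were highest in siCLAP-2 among the siCLAP libraries, the exception being Trim25. Zbp1, a sensor of left-handed double-stranded nucleic acid, was 2.82-fold higher in siNC-3 than in siNC-1 (2.25 to 3.55) and 1.39-fold higher in siCLAP-2 than in siCLAP-3 (1.06 to 1.81).

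The IFIT and OAS families held Oasl2 and Ifit1, both among the 6 members at 100 TPM or more. Ifit1, which binds viral RNA lacking the host cap modification, was at 124, 231 and 142 CPM in siCLAP-1 to siCLAP-3, and at 130, 149 and 199 CPM in siNC-1 to siNC-3. Ifit3, a partner that stabilises the IFIT complex in human cells, was at 22.5, 61.0 and 38.5 CPM in the siCLAP libraries and 34.8, 34.6 and 75.2 CPM in the siNC libraries. Oasl2, a member of the 2′-5′ oligoadenylate synthetase-like proteins, was at 221, 298 and 194 CPM in the siCLAP libraries and 190, 188 and 243 CPM in the siNC libraries. These 3 genes were highest in siCLAP-2 and siNC-3, but the order of the remaining libraries differed, with siCLAP-1 lowest for Ifit3 and siCLAP-3 lowest for Oasl2. Ifit2 was the 1 member of the families whose highest siNC library was siNC-2, at 52.9 CPM against 47.1 CPM in siNC-3.

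Among the low-abundance synthetase genes, Oas2 and Oas3 varied widely between libraries. Oas2, which makes the second messenger that activates RNase L, was at 2.23, 6.41 and 5.24 CPM in the siCLAP libraries and 6.05, 3.41 and 16.9 CPM in the siNC libraries. Its siNC-3 value was 2.80-fold that of siNC-1 (2.36 to 3.33), and its siCLAP-2 value was 1.22-fold that of siCLAP-3, with a counting interval of 0.977 to 1.53. Oas3, untested for its low level, was at 0.211, 1.16 and 0.506 TPM in the siCLAP libraries and 0.831, 0.215 and 2.44 TPM in the siNC libraries, with an 11.2-fold range in CPM within the siNC group. Its counts were 15 to 93.5, and the ratio of siNC-3 to siNC-1 had an interval of 2.11 to 4.29. Ifit3 and Oas1a have close copies, Ifit3b and Oas1g, and reads may be divided between them in a way the sources used here do not give.

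Among the other antiviral effectors, Bst2, which encodes tetherin, the protein that holds budding virus at the membrane, was at 14.4, 24.9 and 12.9 CPM in the siCLAP libraries and 11.8, 14.2 and 22.8 CPM in the siNC libraries. Rsad2, which encodes viperin, an enzyme that makes a chain-terminating nucleotide, was at 28.9 CPM in siCLAP-2 and 12.9 CPM in siCLAP-1, with siCLAP-3 between them, and at 16.5, 24.5 and 28.3 CPM in the siNC libraries. Cmpk2, its neighbour on chromosome 12 and a mitochondrial nucleotide kinase, was at 54.1, 70.9 and 60.2 CPM in the siCLAP libraries and 56.2, 64.9 and 68.2 CPM in the siNC libraries. Bst2 separated 1 library from 2 in both groups, whereas for Rsad2 and Cmpk2 siNC-2 lay nearer to siNC-3 than to siNC-1. Mx1, a dynamin-like GTPase gene that carries an inactivating deletion in C57BL/6 mice, had the largest ratio of any tested member in siCLAP-2, with 236 counts in siCLAP-2 against 106 in the deeper siCLAP-3 (interval of the CPM ratio 1.98 to 3.17), and was 1.96-fold above siNC-2 in siNC-3 (1.57 to 2.43). Isg20, an exonuclease, was highest in siNC-1 among the siNC libraries, whose range was narrow at 2.04 to 2.31 CPM.

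The 7 interferon-inducible GTPases, which attack the vacuoles of intracellular pathogens, were all highest in siCLAP-2 and siNC-3. Igtp was at 33.0, 48.3 and 31.7 CPM in the siCLAP libraries and 31.3, 37.6 and 47.7 CPM in the siNC libraries. Gbp3 was at 29.2, 45.7 and 30.0 CPM in the siCLAP libraries and 32.0, 23.5 and 48.4 CPM in the siNC libraries. Irgm1, a regulator of the other GTPases, was at 10.9, 19.4 and 14.2 CPM in the siCLAP libraries and 13.3, 13.9 and 23.1 CPM in the siNC libraries. Ratios to the higher partner within the group of genes ran from 1.08 to 1.70 in siCLAP-2 and from 1.27 to 2.85 in siNC-3, the largest being Ifi47. In siCLAP-3 Ifi47 was at 4.39 CPM, close to the 5.15 CPM of siCLAP-2 and above the 1.64 CPM of siCLAP-1. Gbp7 had the same order, at 24.3, 37.1 and 34.5 CPM in siCLAP-1 to siCLAP-3. Igtp shares 162 exon bases with Irgm2 on the same strand in GENCODE M21, so their reads may overlap.

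Parp9, Parp14 and Dtx3l, an ADP-ribosylation and ubiquitin ligase set clustered on chromosome 16, and Trim30a, a TRIM protein, were highest in siNC-3 and siCLAP-2 as well. Dtx3l was at 26.1, 37.5 and 32.6 CPM in the siCLAP libraries and 33.4, 28.9 and 44.1 CPM in the siNC libraries. Parp14 was at 24.5, 41.1 and 30.1 CPM in the siCLAP libraries and 32.5, 25.2 and 45.4 CPM in the siNC libraries. Parp9 was at 10.4, 15.3 and 15.2 CPM in the siCLAP libraries and 12.5, 9.91 and 22.3 CPM in the siNC libraries, so siCLAP-2 and siCLAP-3 could not be separated for it. Parp9 and Dtx3l share 458 exon bases on opposite strands, and the library kit does not mark strand.

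Of the remaining 8 induced genes, 7 were highest in siCLAP-2 among the siCLAP libraries and 8 in siNC-3 among the siNC libraries. Ifi27, a mitochondrial membrane protein gene, was at 66.5, 62.9 and 78.4 CPM in the siCLAP libraries and 68.4, 74.5 and 77.0 CPM in the siNC libraries. It was the 1 tested member with its lowest siCLAP value in siCLAP-2, although it was the second most abundant member at 177 TPM on average. Its neighbour Ifi27l2a was at 27.8, 41.0 and 25.7 CPM in the siCLAP libraries and 20.7, 26.3 and 32.1 CPM in the siNC libraries, and was highest in siCLAP-2 and siNC-3. Lgals3bp, a secreted galectin-binding glycoprotein, varied least across the siCLAP group, at 129, 150 and 128 CPM, with 139, 124 and 155 CPM in the siNC group. Ifi44 split the libraries in another way, at 18.3, 27.7 and 7.69 CPM in the siCLAP libraries and 7.32, 12.0 and 18.9 CPM in the siNC libraries. Its siCLAP-1 value was more than that of siCLAP-3, as for 10 members in all, while 32 members were higher in siCLAP-3.

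The comparison of siCLAP with siNC asked whether these genes differ between ganglia given the 2 siRNAs. In edgeR's quasi-likelihood test, fitted on all 19141 tested genes, 0 of the 42 members had a p under 0.05 after Benjamini-Hochberg adjustment, against 0.293% of all tested genes (56 of 19141, with 0.0731% higher and 0.219% lower). At an unadjusted p under 0.05 the count was also 0 members, against 17.0% of all tested genes. By DESeq2, and by limma on log2(TPM + 0.5), 0 members passed with adjustment and 0 without it. The groups overlapped for all 42 members, whereas 21.5% of all tested genes had groups that did not overlap. The background count was 157 without siNC-2, 340 without siCLAP-3, 4 without siNC-3 and 0 without siCLAP-1 (1960 at an unadjusted p under 0.05), and the count of members was 0 in each of these fits.

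Of the 42 estimates 15 were positive and 27 negative, with a median log2 fold change of −0.05 beside −0.0018 over all tested genes. The smallest p belonged to Stat2, at −0.22 ± 0.11 (log2 fold change ± SE, adjusted p = 0.343 by edgeR, 159 ± 19.1 CPM in siCLAP and 186 ± 32.1 CPM in siNC, mean ± SD, n = 3 each), with an interval of −0.45 to 0.00 at 2 SE. The lowest estimate was that of Oas2, at −0.89 ± 0.52, and the highest that of Ifi44, at 0.52 ± 0.39, with intervals of −1.92 to 0.14 and −0.26 to 1.31. Oasl2, the most abundant member, was at 0.20 ± 0.14, with an interval of −0.08 to 0.48. Differences within such an interval are not excluded by these data.

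Abundant members of each role gave similar estimates. Usp18 stood at 0.07 ± 0.23, Ddx58 at −0.11 ± 0.10, Bst2 at 0.12 ± 0.26, Igtp at −0.04 ± 0.17, Dtx3l at −0.14 ± 0.15 and Ifi27 at −0.08 ± 0.08. Adjusted p ran from 0.603 for Ddx58 to 0.929 for Igtp in edgeR's test. Isg15 averaged 9.08 ± 3.92 CPM in siCLAP and 9.32 ± 5.26 CPM in siNC (mean ± SD, n = 3 each), so its spread within either group was many times the difference between the means. By role, medians ran from −0.18 for the IFIT and OAS families to 0.04 for the other antiviral effectors.

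The direction of the list depended on which library was left out. Without siNC-3, 35 of 42 estimates were positive and the median was 0.17. In that edgeR fit 4 members were higher at an unadjusted p under 0.05, against 2138 of 19141 tested genes in either direction. Without siCLAP-2, 39 of 42 were negative and the median was −0.26. There 4 members were lower at an unadjusted p under 0.05 by edgeR, against 2412 of 19141 tested genes in either direction. With both left out, leaving 2 libraries in each group, 18 estimates were positive and 24 negative, and the median was −0.03. There 0 members passed adjustment in edgeR's test. At an unadjusted p under 0.05 it held 3 members, all lower, against 1560 of 19141 tested genes in either direction. Leaving out siCLAP-1, the library lowest for most members, gave a median of 0.07, and leaving out siNC-2 gave −0.20.

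**Figure D4:**
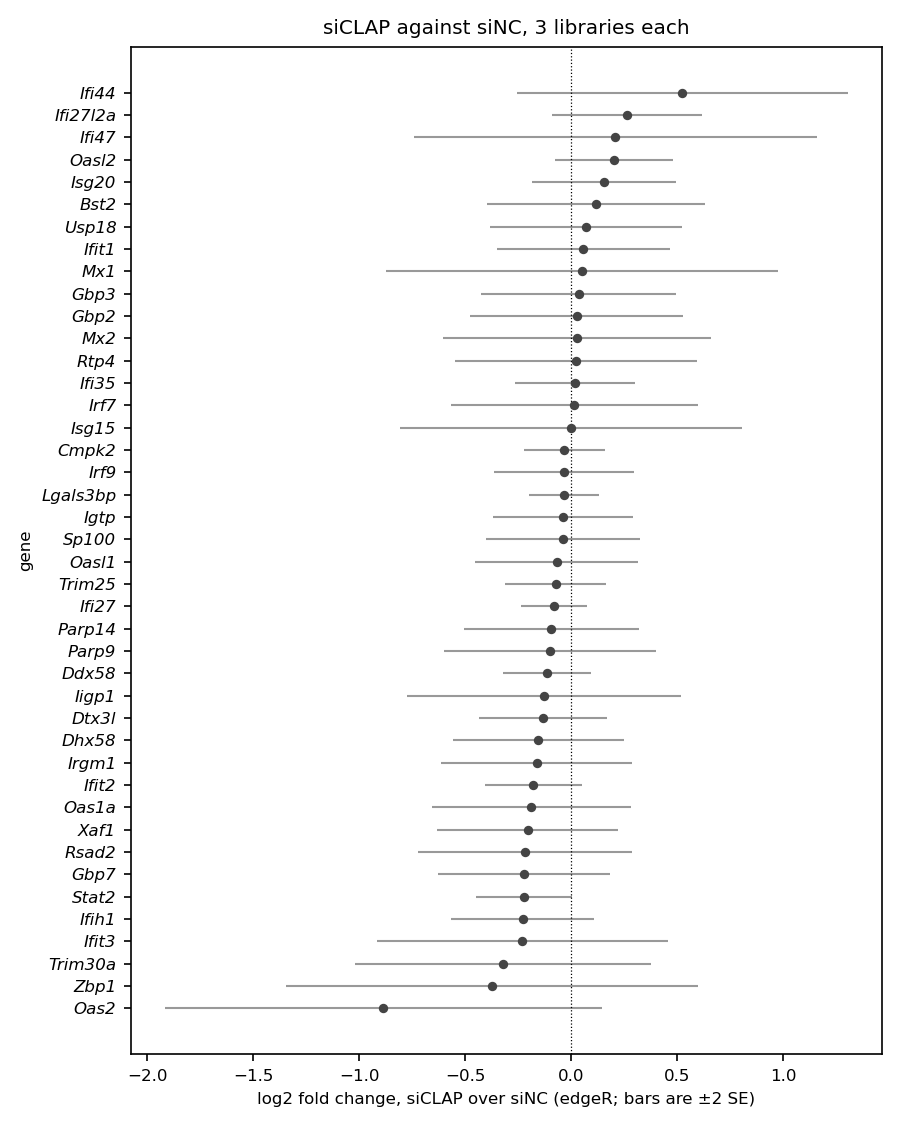
Log2 fold change of siCLAP over siNC for the 42 tested members, from the highest to the lowest estimate, with bars of 2 SE on each side (edgeR, n = 3 libraries per group). The estimates run from 0.52 for Ifi44 to −0.89 for Oas2, and every bar reaches zero, that of Stat2 barely.

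The rest of the pathway was read from lists that do not include the members. Of 10 interferon ligand genes, among them Ifnb1, Ifna4 and Ifng, 10 were at a count of 0 in every library, which allows up to 0.140 CPM of each in siNC-3, the shallowest library, and 0.0652 CPM in siNC-2, the deepest (3 counts, counting error only). Of 6 receptor genes 5 were tested and 0 passed. Ifnar1 was at 32.2, 32.9 and 30.9 TPM in the siCLAP libraries and 35.6, 32.5 and 33.3 TPM in the siNC libraries, and Ifnar2 was at 15.8, 15.7 and 14.2 TPM in the siCLAP libraries and 14.0, 14.5 and 15.2 TPM in the siNC libraries. Among the 5 tested receptor genes siNC-3 was highest for 1 (30.8% of all tested genes) and siCLAP-2 for 3 (35.7%), none by 1.5-fold. Their ratios to the higher partner ran from 0.931 to 1.03 in siCLAP-2 and from 0.882 to 1.03 in siNC-3. With so few genes and such small differences, whether they share the order of the members cannot be told.

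Among signal transducers Jak1 varied little. In a list of 10, of which 9 were tested, 0 passed, with the smallest p for Irf2 at −0.19 ± 0.07 (adjusted p = 0.204 by edgeR). Jak1, the kinase of both receptors, was at 242, 227 and 250 TPM in the siCLAP libraries and 260.5, 238 and 246 TPM in the siNC libraries. Of 14 sensing adaptors and kinases found, 9 were tested and 0 passed. Tbk1, the kinase that activates Irf3, was between 55.7 and 58.8 TPM in all 6 libraries. Within their groups, siCLAP-2 was highest for 4 of the 9 tested genes (35.7% of all tested genes) and siNC-3 for 5 (30.8%). In both libraries 1 of these exceeded 1.5-fold, Ifi204, at 2.11-fold its higher partner in siCLAP-2 and 2.87-fold in siNC-3. Ifi204 is also in the list of other induced genes below. Among 10 negative regulators 0 passed, with the smallest p for Rnf125 at −0.24 ± 0.07 (adjusted p = 0.141 by edgeR). Rnf125 was at 22.9, 22.3 and 25.4 CPM in the siCLAP libraries and 29.7, 26.8 and 26.6 CPM in the siNC libraries, without overlap. Socs1, an induced inhibitor of the receptor kinases, was at 4.28, 5.38 and 4.02 TPM in the siCLAP libraries and 3.15, 3.18 and 5.79 TPM in the siNC libraries.

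Another list of 40 interferon-induced genes had the same libraries high. Of its 38 tested genes 35 were highest in siCLAP-2 among the siCLAP libraries and 36 were highest in siNC-3 among the siNC libraries, with 7 and 20 of them at least 1.5-fold above both partners. The shares of all tested genes were 35.7% and 30.8%, and 1.85% and 2.51% at 1.5-fold. Between the groups 0 passed edgeR's test. The smallest p of the list was that of Oas1g, at −1.28 ± 0.37 (adjusted p = 0.133 by edgeR), on 20 to 65 counts. Oas1g was at 0.512, 0.991 and 0.714 CPM in the siCLAP libraries and 1.27, 1.28 and 3.03 CPM in the siNC libraries. Its groups did not overlap, as for 21.5% of all tested genes. Cxcl10, a chemokine that draws T cells, was at 6.77, 16.3 and 8.08 TPM in the siCLAP libraries and 6.39, 6.27 and 24.1 TPM in the siNC libraries. Its siNC-3 value was 3.77-fold that of siNC-1 (3.02 to 4.74) in CPM, beyond that of any tested member. The antigen presentation genes in the list followed a related but not identical order. B2m, the light chain of MHC class I, was at 606, 811 and 422 TPM in the siCLAP libraries and 427, 437 and 603 TPM in the siNC libraries, so siCLAP-1, the lowest library for most members, matched siNC-3 here.

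Markers of other cell types moved in part with the members. The summed level of 8 macrophage markers was 35.6, 54.9 and 28.3 TPM in siCLAP-1 to siCLAP-3, and 36.7, 28.0 and 44.4 TPM in siNC-1 to siNC-3. All 8 were highest in siCLAP-2 among the siCLAP libraries, 5 of them by 1.5-fold, and 5 of 8 were highest in siNC-3 among the siNC libraries, 1 by 1.5-fold. Beside this list and the endothelial and fibroblast lists below, 35.7% of all tested genes were highest in siCLAP-2 and 30.8% in siNC-3. At 1.5-fold the shares were 1.85% and 2.51%. Csf1r, the macrophage growth factor receptor, was at 5.79, 8.98 and 5.43 TPM in the siCLAP libraries and 6.94, 5.93 and 7.97 TPM in the siNC libraries. Adgre1, Cx3cr1 and Mrc1 were highest in siNC-1 among the siNC libraries. Cx3cr1, with the smallest p of the list (1.06 ± 0.38, adjusted p = 0.197 by edgeR), was at 1.58, 2.83 and 1.01 TPM in the siCLAP libraries. In the siNC libraries Cx3cr1 was at 1.14, 0.480 and 1.08 TPM. A part of macrophage number in the members' levels was not tested. All 6 endothelial markers were highest in siNC-3 among the siNC libraries, none by 1.5-fold, with sums of 66.1 to 67.9 TPM in the siCLAP group and 63.0 to 74.1 TPM in the siNC group. All 4 fibroblast markers were highest in siCLAP-2 among the siCLAP libraries, with sums of 297 to 496 TPM in the siCLAP group and 285 to 408 TPM in the siNC group.

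Markers of T, B and NK cells, neutrophils and plasmacytoid dendritic cells were at most at 5.75 TPM, the level of the neutrophil gene S100a9 in siNC-3, apart from Ighm, an immunoglobulin heavy chain gene, and Tcf4. The 8 T and NK cell markers summed to 0.598 to 3.31 TPM in the siCLAP group, highest in siCLAP-2, and 0.978 to 1.44 TPM in the siNC group, highest in siNC-3, and 2 or 3 of the 8 were at a count of 0 in each library. Among 4 B cell markers Ms4a1 was at a count of 0 in siCLAP-2, siCLAP-3, siNC-2 and siNC-3, while Ighm was at 19.1 to 24.0 TPM in the siCLAP group and 20.6 to 29.8 TPM in the siNC group, with list sums of 20.8 to 25.4 TPM and 22.8 to 31.6 TPM. The 5 neutrophil markers summed to 0.244 to 3.67 TPM in the siCLAP group, lowest in siCLAP-2, and 2.88 to 9.03 TPM in the siNC group, highest in siNC-3. Siglech, a marker of plasmacytoid dendritic cells, which are strong producers of interferon, was at 0.0356 to 0.200 TPM in the siCLAP group and 0.113 to 0.331 TPM in the siNC group. The 4 markers of that cell type summed to 11.1 to 11.4 TPM in the siCLAP group and 9.74 to 11.8 TPM in the siNC group, nearly all of it from Tcf4, which other cells express.

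Of the neuron, satellite glia and Schwann cell markers, 0 were 1.5-fold above both partners in siCLAP-2 or siNC-3. The 6 sensory neuron markers summed to 12759 to 13119 TPM in the siCLAP group and 11973 to 12257 TPM in the siNC group, with 2 of 6 highest in siCLAP-2 among the siCLAP libraries and 0 of 6 in siNC-3 among the siNC libraries. Satellite glia markers (5 genes) summed to 656 to 673 TPM in the siCLAP group and 593 to 622 TPM in the siNC group, and Schwann cell markers (5 genes) to 3209 to 3514 TPM and 3221 to 4283 TPM. Within their groups, siCLAP-2 was highest for 1 and siNC-3 for 4 of the satellite glia markers. For the Schwann cell markers these counts were 3 and 0. In these lists the siCLAP libraries were higher for Ednrb, an endothelin receptor gene, at a log2 fold change of 0.45 ± 0.07 (adjusted p = 0.0317 by edgeR), and lower for Egr2, the myelination factor of Schwann cells, at −0.76 ± 0.13 (adjusted p = 0.0389 by edgeR). Neither call held in limma on log2(TPM + 0.5) or in edgeR without siCLAP-1, where 0 genes passed in all (3028 and 1960 at an unadjusted p under 0.05). Erythroid markers (5 genes), a sign of blood in the tissue, summed to 9.05 to 25.8 TPM in the siCLAP group, lowest in siCLAP-2, and to 10.1 to 56.7 TPM in the siNC group, highest in siNC-1.

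**Figure D5:**
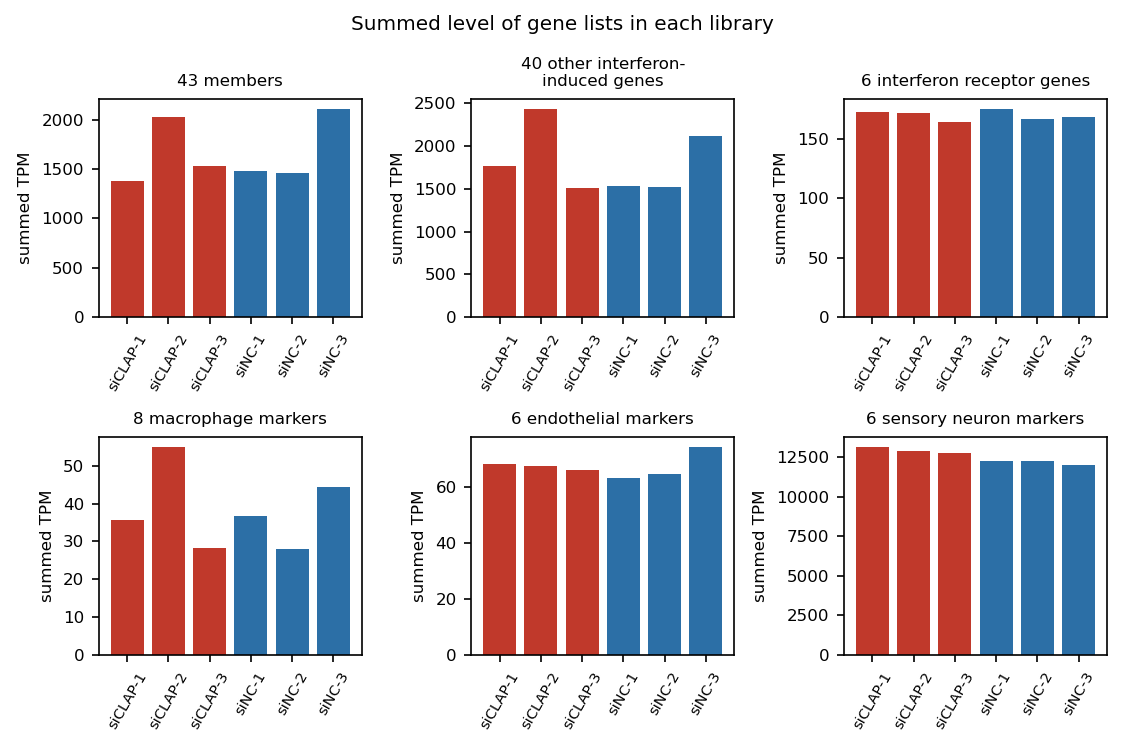
Summed TPM (y axis, from 0) of the 43 members and of 5 further gene lists in each library (x axis, siCLAP bars in red left of siNC bars in blue). The members and the 40 other induced genes are highest in siCLAP-2 and siNC-3, as are the macrophage markers, while receptor and neuron sums are nearly level.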

How the data were processed

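Per the labels' protocols, L4/5 ganglion RNA was made into libraries by NEBNext Ultra RNA chemistry, which does not mark strand. The submitters' processing notes list FastQC 0.11.8, HISAT2 2.1.0, featureCounts 1.6.2 and mm10. No annotation, strand setting or rule for reads that match several genes is given in the sources used here. The authors deposited a TPM value and an expected count per gene symbol and library, 66.5% of the expected counts being whole within 1e-06.

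Expected counts were rounded to whole numbers, scaled by TMM and tested by quasi-likelihood in edgeR 4.0.16 under R 4.3.3, with no covariate, where a gene's mean TPM reached 1, with p-values adjusted over all 19141 genes. Each SE was the fold change divided by the root of F, and fitted intervals are 2 SE. Exact permutation of 3 against 3 libraries cannot go below p = 0.1. DESeq2 1.42.0 and limma 3.58.1 on log2(TPM + 0.5) were alternatives. On simulated counts for siCLAP against siNC, 56%, 74%, 98% and 100% of 50 genes each changed by 1.25, 1.5, 2 and 3-fold were recovered over 19141 genes, with 18 false calls. The changed genes were drawn at random from all genes but those at a low level, each with its own spread. Recovery was not measured for the members, whose SE ran from 0.08 for Ifi27 to 0.52 for Oas2 on the log2 scale.

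The members, the lists and the rule for named genes were chosen with earlier results of these data known. The rule took the 3 members with the highest mean TPM in each role and any member that passed, and up to 4 genes of each list by smallest p. Cxcl10, B2m, Jak1, Tbk1, Ifi204, Socs1, Csf1r, Ifnar1, Ifnar2 and the further members named by value were chosen after their values were seen. Exon overlaps were read from GENCODE M21 (GRCm38, the same build).

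Chi-square per gene between libraries of a group was 4.36 to 10.0, so no library repeats another.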

Additional observations from a re-analysis of the deposited data

How the results depend on the processing

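The count of members that passed stayed at 0 in all 14 alternatives, with up to 7 of 43 members at an unadjusted p under 0.05. That was in edgeR without the TPM filter (smallest adjusted p = 0.0816), with 3 members higher and 4 lower, against 4026 of 30347 genes in either direction. The median log2 fold change of the members ran from −0.26 to 0.17 when each library was left out in turn, so its sign was not stable. The pooled SD of the libraries' median member level within groups was 0.364. It includes siCLAP-2 and siNC-3 and is not the SD of a group difference, so the range was not judged against it. The count over all genes, 56, was 611 with DESeq2, 0 with limma at either pseudocount (3028 and 3040 at an unadjusted p under 0.05), 835 without the TPM filter, 118 at a mean TPM of at least 5, 13 without siNC-3 and siCLAP-2, and 0 to 340 with each library left out. With the replicate number as a block it was 203, and 0 members passed. In that edgeR fit 2 members were at an unadjusted p under 0.05, both lower, against 3826 of 19141 tested genes in either direction. Deviations of same-numbered libraries correlated at 0.141, 0.0423 and −0.0674, so the numbers were not taken to pair them. With the limit lowered to a ratio of 5/4, 24 members stood above both partners in siCLAP-2 and 32 in siNC-3, and at 2-fold 1 and 6 did. The share of all tested genes was counted at 1.5-fold only, so these counts have no background to be read against. Without siNC-3 and siCLAP-2, the signs of Ifi27 (0.016) and Usp18 (−0.15) turned. Leaving out each library, Bst2 ran from −0.22 to 0.40, Igtp from −0.25 to 0.12, Usp18 from −0.29 to 0.26 and Dtx3l from −0.27 to 0.038, so their signs rest on single libraries. The cause of these changes was not tested.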

Other observations

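Genes outside the member list that stood high in the same libraries were sought by the smaller of their 2 ratios, siCLAP-2 over the higher of siCLAP-1 and siCLAP-3, and siNC-3 over the higher of siNC-1 and siNC-2. Of the first 10 genes 7 had at most 6 counts in any library and are not described. With at least 20 counts required in both libraries, a limit set after seeing the data, the first 10 were Slfn4, Slfn1, Fcgr1, Gm4955, Slfn2, Mnda, Ifi204, Ly6c2, Slfn8 and Spi1, of which Slfn2 and Ifi204 are also in the list of other induced genes. Slfn4, Slfn1, Slfn2 and Slfn8 belong to the schlafen family, which interferon induces in mouse myeloid cells. Slfn4 was at 0.999, 3.81 and 1.19 CPM in siCLAP-1 to siCLAP-3, and at 0.732, 0.761 and 7.19 CPM in siNC-1 to siNC-3, a ratio of 3.20 and 9.45 to the higher partner. Fcgr1, an antibody receptor of monocytes and macrophages, was at 0.845, 3.62 and 1.16 CPM in the siCLAP libraries and 0.957, 0.717 and 2.33 CPM in the siNC libraries. Spi1, the transcription factor PU.1 of myeloid cells, was at 0.717, 2.29 and 1.12 CPM in the siCLAP libraries and 0.732, 0.565 and 1.59 CPM in the siNC libraries. None of the 10 passed the test of siCLAP against siNC by edgeR (adjusted p from 0.394 to 0.988). They were picked for 1 high library in each group, which widens the spread within groups, so nothing is drawn from that test. In all, 85 genes outside the members were at least 1.5-fold above both partners in both libraries.

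Among members with a promoter window, the 15 tested ones with response element letters had a median ratio to the higher partner of 1.47 in siCLAP-2 and 1.51 in siNC-3, and the 15 without them 1.17 and 1.32. These are descriptions with no test, and the members share libraries and gene clusters.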
